A study of Mus musculus with 2 samples.

Results

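The metallothioneins Mt1, Mt2 and Mt3, the zinc transporters Slc30a1, Slc30a10 and Slc39a14, and the metal-responsive transcription factor Mtf1 were followed through single cells of mouse retina. They are 7 of the 25778 genes in the deposited count table. They were chosen by name, with earlier results of these data known, and the values that chose them are their levels by cell type, so those levels are given here as a description. Single-cell RNA sequencing was performed on whole retina at postnatal day 30 (30 days), with 1 library of Chx10-Cre control retina (Ptbp1-Ctrl) and 1 library of Chx10-Cre;Ptbp1lox/lox retina (Ptbp1-KO). Both genotypes carry the Chx10-Cre transgene, which expresses Cre in retinal progenitors, and the Ptbp1-KO retina carries floxed alleles of Ptbp1, an RNA-binding protein that represses splicing. With 1 library for each genotype there is no replicate check. Every difference compares these 2 libraries, and genotype cannot be told apart from animal, dissociation or library.

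Metallothioneins are small, cysteine-rich proteins that bind zinc and copper and buffer the free metal of the cell. Mtf1 senses zinc, enters the nucleus and activates the genes of metallothioneins and of the zinc exporter Slc30a1 through short metal response elements in their promoters. Glucocorticoids, cytokines and oxidative stress also raise Mt1 and Mt2, whereas Mt3 is best known from the brain. Slc30a transporters move zinc out of the cytosol, Slc39a transporters bring it in, Slc30a10 is known chiefly as a manganese exporter, and Slc39a14 carries zinc, iron and manganese. In the retina, Müller glia (MG) are the glia that span all layers and support the neurons.

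Mt3, Mt2 and Mt1 lie next to each other on the plus strand of mouse chromosome 8 (mm10, GRCm38), at 94152607 to 94154146, 94172664 to 94173568 and 94179082 to 94180327. Mt4 lies before them and is not among the genes of the deposited counts, so it could not be measured. The 250 bases before each gene's RefSeq start (GRCm38.p6, plus strand) are shown because the 3 genes differed between libraries by unlike amounts. Whether these bases bear on those amounts was not tested. Capitals mark the core of the metal response element, searched as TGCACNC and TGCGCNC on both strands, with overlapping matches counted once. The windows are chr8:94178839-94179088 for Mt1, chr8:94172368-94172617 for Mt2 and chr8:94152357-94152606 for Mt3.
Mt1: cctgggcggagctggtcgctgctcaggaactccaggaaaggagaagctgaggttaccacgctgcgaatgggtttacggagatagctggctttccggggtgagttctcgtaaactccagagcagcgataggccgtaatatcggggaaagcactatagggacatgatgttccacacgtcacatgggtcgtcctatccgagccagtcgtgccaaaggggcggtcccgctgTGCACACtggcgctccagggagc
Mt2: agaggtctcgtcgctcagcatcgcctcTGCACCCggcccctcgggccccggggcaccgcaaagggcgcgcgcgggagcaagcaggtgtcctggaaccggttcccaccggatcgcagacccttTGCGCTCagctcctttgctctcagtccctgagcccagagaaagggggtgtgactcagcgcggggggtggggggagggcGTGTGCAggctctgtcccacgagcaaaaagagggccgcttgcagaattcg
Mt3: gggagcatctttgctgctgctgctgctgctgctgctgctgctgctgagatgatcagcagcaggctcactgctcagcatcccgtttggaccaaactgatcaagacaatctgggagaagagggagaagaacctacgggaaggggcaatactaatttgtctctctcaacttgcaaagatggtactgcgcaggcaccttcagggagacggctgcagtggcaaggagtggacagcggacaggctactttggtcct
In windows of 300 bases that add the 50 bases after the start, Mt1 held 3 such sites, Mt2 held 4 and Mt3 held 1. Counted from the RefSeq starts, 1 of the Mt1 sites and 3 of the Mt2 sites lay before the start. The Mt3 site lay 28 bases into the transcript. The gene positions above are GENCODE's, whose starts of Mt1 and Mt2 differ from those of RefSeq. By the GENCODE start of Mt2, all 4 of its sites lay before the start. Of 32851 mouse promoter windows of this length, 25.7% held at least 1 site, 1.31% at least 3 and 0.295% at least 4. Slc30a1 and Slc30a10 each held 2 sites, where 6.14% of windows held at least 2, and Mtf1 held none. RefSeq windows were matched for 6 of the 7 genes. A match of these letters is a description and not a binding site.

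The Ptbp1-Ctrl library held 16421 cells and 32758836 unique molecular identifiers (UMIs), each counting 1 captured transcript, and the Ptbp1-KO library held 14522 cells and 35328593 UMIs. Median depth per cell was higher in Ptbp1-KO, at 1740 UMIs against 1442. Ptbp1 itself, the targeted gene, was counted 294 times in the MG of Ptbp1-Ctrl and 6 times in those of Ptbp1-KO. In rods, cones, bipolar and amacrine cells its level was 13.8 to 20.96 UMIs per 1000000 UMIs of the same cells (CPM) in Ptbp1-Ctrl and at most 0.701 CPM in Ptbp1-KO. Cell types are those named in the deposited cell table, with amacrine cells abbreviated AC, bipolar cells BC, horizontal cells HC and retinal ganglion cells RGC. MG numbered 1720 in Ptbp1-Ctrl and 1184 in Ptbp1-KO, with median depths of 3333 and 4178 UMIs. Their 6 markers (Glul, Rlbp1, Apoe, Sox9, Aqp4 and Slc1a3) summed to 22632 and 23512 CPM in MG, against 188 to 639 CPM in rods, cones, BC and AC. The same barcode occurred in both libraries for 63 cell barcodes. Leaving those cells out moved no value of the 7 genes beyond its counting error.

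All 3 metallothioneins were higher in the MG of Ptbp1-KO, and Mt3 by the largest ratio. Levels are UMIs summed over the cells of a type and library, in CPM, with 95% exact Poisson intervals, and ratios are log2 of Ptbp1-KO over Ptbp1-Ctrl. Mt1 had 8014 and 12494 UMIs in the MG of Ptbp1-Ctrl and of Ptbp1-KO, which is 1357 CPM (1327 to 1387) and 2457 CPM (2414 to 2500). The log2 ratio of Mt1 was 0.86 (0.82 to 0.90), or 1.81-fold. Mt2 had 1184 and 1985 UMIs, at 200 CPM (189 to 212) in Ptbp1-Ctrl and 390 CPM (373 to 408) in Ptbp1-KO. Its log2 ratio was 0.96 (0.86 to 1.07). Mt3, with 1201 and 2466 UMIs, stood at 203 CPM (192 to 215) in Ptbp1-Ctrl and at 485 CPM (466 to 504) in Ptbp1-KO. Its log2 ratio was 1.25 (1.15 to 1.35), or 2.38-fold, and its interval lay above those of Mt1 and Mt2. These intervals cover counting error only, and at counts this high those of the 2 libraries part on small ratios too.

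The transporters and Mtf1 moved less in MG. Slc30a10 had 63 and 77 UMIs, or 10.7 and 15.1 CPM, with a log2 ratio of 0.51 (0.01 to 1.01). Slc30a1, the plasma membrane zinc exporter and a known Mtf1 target, stood at 18.8 and 23.0 CPM, a log2 ratio of 0.29 (-0.10 to 0.68). Slc39a14 stood at 6.60 and 7.28 CPM, with a log2 ratio of 0.14 (-0.55 to 0.83). Mtf1 was listed at 21.7 and 19.7 CPM, with a log2 ratio of -0.14 (-0.53 to 0.25). The intervals of the last 3 ratios held 0. Of the 7 genes, all of which reached 50 UMIs over both libraries in MG, 3 were at least 1.5-fold higher in Ptbp1-KO and 0 were at least 1.5-fold lower. Over all 12080 genes with as many UMIs in MG, 4.64% were at least 1.5-fold higher and 3.11% at least 1.5-fold lower, and the median log2 ratio was -0.00. At a limit of 2-fold, 1 of the 7 genes, Mt3, was higher and 0 were lower, beside 1.28% and 0.712% of all genes. The genes were chosen with this contrast known, so nothing is read from their count.

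**Figure D1:**
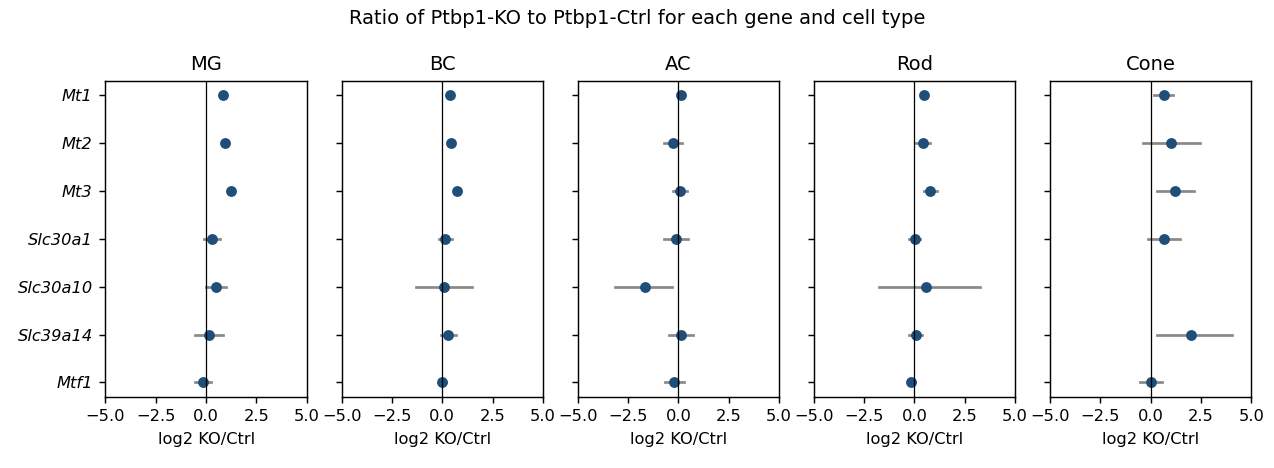
Log2 ratio of Ptbp1-KO over Ptbp1-Ctrl (x axis) for each of the 7 genes (rows) in 5 cell types (panels), with points for the ratio and lines for 95% exact intervals of counting error. In MG the points of Mt1, Mt2 and Mt3 lie at 0.86, 0.96 and 1.25, and in AC at 0.14, -0.27 and 0.08. Slc30a10 in cones has no point because Ptbp1-Ctrl had 0 UMIs.

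The difference was spread over many MG rather than carried by a few cells. Because Ptbp1-KO MG were deeper, each cell was thinned to 1000 UMIs, which left out 57 of 1720 MG in Ptbp1-Ctrl and 11 of 1184 in Ptbp1-KO. At this depth Mt1 had a UMI in 61.8% of Ptbp1-Ctrl MG (59.4 to 64.1) and in 74.9% of Ptbp1-KO MG (72.4 to 77.4), against 83.0% and 90.5% without thinning. Mt2 was found in 16.4% (14.7 to 18.3) and 24.9% (22.4 to 27.5) of thinned MG, and in 36.7% and 52.1% without thinning. The share of thinned MG with Mt3 was 16.7% (14.9 to 18.5) in Ptbp1-Ctrl and 35.3% (32.6 to 38.1) in Ptbp1-KO, and 40.3% and 68.2% without thinning. In rods, whose median depths were 1088 and 1288 UMIs, thinning left out 4155 of 10058 cells in Ptbp1-Ctrl and 3126 of 9301 in Ptbp1-KO. The shares of the remaining rods were 4.76% and 6.51% for Mt1, 0.864% and 1.23% for Mt2, and 0.762% and 1.46% for Mt3.

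The Mt1 distribution moved at both ends. MG without Mt1 at this depth went from 38.2% (35.9 to 40.6) in Ptbp1-Ctrl to 25.1% (22.6 to 27.6) in Ptbp1-KO. MG with at least 5 Mt1 UMIs out of 1000 made up 4.93% (3.94 to 6.08) of Ptbp1-Ctrl MG and 16.5% (14.5 to 18.8) of Ptbp1-KO MG, while MG with exactly 2 were 16.2% and 16.03%. For Mt3 the growth was in cells with 1 UMI, from 14.2% (12.5 to 15.96) to 26.1% (23.6 to 28.7), and with 2 UMIs, from 1.92% to 6.65%. The 10% of MG with the most Mt1 UMIs held 37.1% of them in Ptbp1-Ctrl and 35.3% in Ptbp1-KO, and the 10% with the most Mt3 UMIs held 47.3% and 37.1% of those. A single Ptbp1-KO cell held 211 Mt1 UMIs, against a highest value of 63 in Ptbp1-Ctrl. Over 10 alternatives, among them leaving out the cell of most UMIs in each library, the log2 ratio lay between 0.82 and 0.93 for Mt1, between 0.92 and 1.04 for Mt2 and between 1.22 and 1.33 for Mt3.

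**Figure D2:**
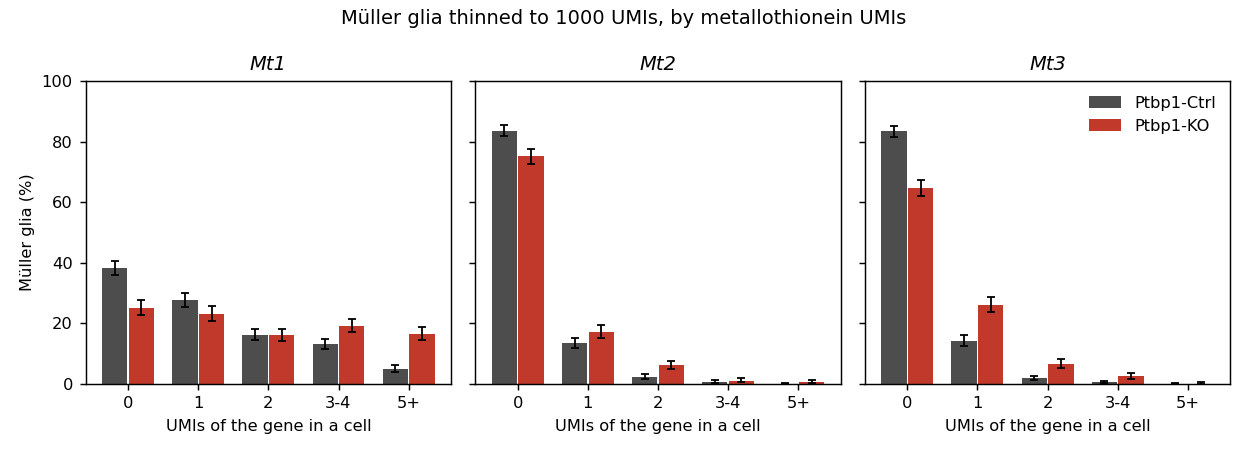
Percent of MG (y axis) by the number of UMIs of Mt1, Mt2 and Mt3 in a cell (x axis), after each cell was thinned to 1000 UMIs, in Ptbp1-Ctrl (grey, 1663 cells) and Ptbp1-KO (red, 1173 cells). Error bars are 95% exact binomial intervals. Cells with 5 or more Mt1 UMIs are 4.93% and 16.5% of the 2 libraries, and cells without Mt3 are 83.3% and 64.7%.

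Mt1 and Mt2 were often found in the same MG. At 1000 UMIs per cell, Mt2 was found in 21.7% (19.2 to 24.4) of Ptbp1-Ctrl MG with Mt1 and in 7.86% (5.89 to 10.2) of those without it, and in 30.3% (27.2 to 33.4) and 8.84% (5.86 to 12.7) in Ptbp1-KO. Mt3 was found in 19.1% (16.7 to 21.6) of Ptbp1-Ctrl MG with Mt1 and in 12.7% (10.2 to 15.6) of those without. In Ptbp1-KO these shares were 39.8% (36.6 to 43.1) and 21.8% (17.2 to 26.9). Between Mt3 and Mt2 the shares were alike in Ptbp1-Ctrl, where 18.3% (13.9 to 23.4) of MG with Mt2 and 16.3% (14.4 to 18.4) of MG without it had Mt3. In Ptbp1-KO the shares were 49.0% (43.1 to 54.9) and 30.8% (27.7 to 33.9). Cells of clusters with unlike levels are mixed in these shares.

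In the 3 deposited clusters of MG the log2 ratios of Mt1, Mt2 and Mt3 were above 0, at unlike levels. The interval of Mt1 lay above 0 in 3 of 3 clusters, and those of Mt2 and Mt3 in 2 of 3. Cluster 4, led over the other MG by Cryab, S100a16 and S100a10, held 80.6% of Ptbp1-Ctrl MG and 84.0% of Ptbp1-KO MG, and 90.01% and 93.4% of their Mt1 UMIs. There Mt1 went from 1439 to 2616 CPM, Mt2 from 211 to 416 CPM and Mt3 from 220 to 524 CPM, with log2 ratios of 0.86 (0.82 to 0.90), 0.98 (0.87 to 1.09) and 1.26 (1.15 to 1.36). In cluster 22, with 89 and 54 cells, Mt1 went from 1250 to 1797 CPM, a log2 ratio of 0.52 (0.37 to 0.68). Mt3 in cluster 22 went from 166 to 292 CPM, a log2 ratio of 0.81 (0.39 to 1.24). Markers of other types were raised in this cluster, with 1977 and 3237 CPM for the 6 cone markers and 3409 and 4255 CPM for the 6 BC markers. Cluster 16, with 245 and 136 cells, had the lowest levels, with Mt1 at 394 and 616 CPM and a log2 ratio of 0.64 (0.31 to 0.98). Mt2 in cluster 16 rested on 30 and 25 UMIs (log2 0.30, -0.53 to 1.11) and Mt3 on 14 and 18 UMIs (log2 0.92, -0.17 to 2.04). Its median depth was 1314 and 1715 UMIs, and its 6 rod markers summed to 11878 and 7205 CPM. The part of these markers in the metallothionein values was not tested.

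Astrocytes, which also express metallothioneins, were looked for in MG with Gfap, Pax2, Aldh1l1, S100b, Igfbp5 and Pdgfra. These 6 summed to 59.6 CPM in Ptbp1-Ctrl MG and 98.9 CPM in Ptbp1-KO MG, with none of the 6 at 0 in either. In cluster 4 the sums were 62.1 and 90.8 CPM, and Pax2, which marks retinal astrocytes, was at 0 in both libraries. The sums moved more in the other clusters, from 45.9 to 195 CPM in cluster 16 and from 45.8 to 131 CPM in cluster 22. The ratios of Mt1, Mt2 and Mt3 in cluster 4 were those given above, close to those over all MG. The 6 microglia markers summed to 34.4 and 40.3 CPM in MG, with C1qb and Tmem119 at 0. Whether astrocytes contribute to the MG sums was not tested further.

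Among cell types, MG had the highest Mt1 and Mt2 in both libraries. Mt1 in Ptbp1-Ctrl was ordered MG (1357 CPM), BC (641 CPM), AC (312 CPM), HC (190 CPM), RGC (70.4 CPM), rods (55.5 CPM) and cones (39.0 CPM). The level intervals of AC (288 to 338 CPM) and HC (117 to 290 CPM) overlapped only narrowly, and those of RGC and rods overlapped. The ratio of AC to HC was not computed. In Ptbp1-KO the order was MG (2457 CPM), BC (829 CPM), AC (343 CPM), RGC (120 CPM), HC (117 CPM), rods (77.3 CPM) and cones (61.0 CPM), and from RGC onward the intervals of neighbours overlapped. Of all Mt1 UMIs, MG held 50.9% in the Ptbp1-Ctrl library and 53.1% in the Ptbp1-KO library, and BC held 39.9% and 36.1%.

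Mt3 had another order. In Ptbp1-Ctrl it was highest in the cells annotated RGC, at 305 CPM (235 to 389), then in MG at 203 CPM, BC at 70.3 CPM and AC at 54.2 CPM, with cones at 9.74 CPM and rods at 8.82 CPM. In Ptbp1-KO, MG came first at 485 CPM, followed by RGC at 136 CPM (88.1 to 201) and BC at 119 CPM (112 to 126), whose intervals overlapped, AC at 57.3 CPM, cones at 22.4 CPM and rods at 15.2 CPM. HC had 0 Mt3 UMIs in both libraries, which allows up to 27.1 CPM in the Ptbp1-Ctrl library and 70.0 CPM in the other. RGC were few, at 124 and 97 cells, and Mt3 rested on 65 UMIs in 21 cells of Ptbp1-Ctrl and 25 UMIs in 10 cells of Ptbp1-KO. The log2 ratio of Mt3 in RGC was -1.16 (-1.89 to -0.48), and the 6 RGC markers also summed to less in Ptbp1-KO, at 1520 CPM against 2511 CPM. Rod markers were far higher than RGC markers in these cells, with sums of 22140 and 26731 CPM over 6 genes in the 2 libraries, against 34620 and 29948 CPM in rods themselves. The part of these markers in the Mt3 value was not tested.

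**Figure D3:**
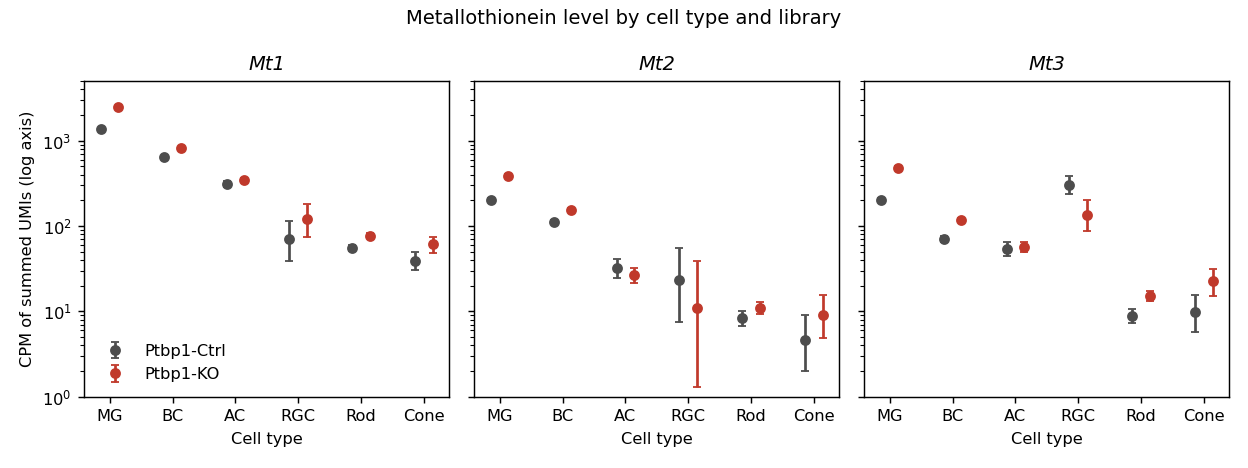
Level of Mt1, Mt2 and Mt3 (panels) in 6 cell types (x axis), as CPM of summed UMIs on a log axis, in Ptbp1-Ctrl (grey) and Ptbp1-KO (red), with 95% exact Poisson intervals. MG are highest for Mt1 and Mt2, and RGC are highest for Mt3 in Ptbp1-Ctrl, at 305 CPM, but not in Ptbp1-KO, at 136 CPM. HC are left out for their 17 and 7 cells.

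In BC and rods the metallothionein ratios were above 0 and smaller than in MG. In AC the intervals of all 3 ratios held 0. In BC, Mt1 was at 641 CPM (626 to 657) in Ptbp1-Ctrl and 829 CPM (812 to 847) in Ptbp1-KO, with a log2 ratio of 0.37 (0.32 to 0.42). Mt2 was at 112 and 154 CPM, with a log2 ratio of 0.45 (0.34 to 0.56). Mt3 was at 70.3 CPM (65.1 to 75.7) and 119 CPM (112 to 126), with a log2 ratio of 0.76 (0.62 to 0.89). Of the 6 members with at least 50 UMIs in BC, Mt3 alone was at least 1.5-fold higher in Ptbp1-KO, as were 3.53% of all genes, and 0 members were as much lower, beside 2.07% of all genes. In AC, Mt1 stood at 312 and 343 CPM (log2 0.14, -0.00 to 0.28), Mt2 at 32.2 and 26.7 CPM (log2 -0.27, -0.74 to 0.21) and Mt3 at 54.2 and 57.3 CPM (log2 0.08, -0.26 to 0.43). Of 6 members measured in AC, 0 were 1.5-fold higher and 0 lower, against 3.89% and 2.95% of all genes. The AC ratios moved with the processing. In the largest AC cluster alone, Mt3 went from 36.4 to 65.0 CPM (log2 0.84, 0.26 to 1.45), and with a share of the whole library's profile subtracted the log2 ratio was -0.35 for Mt3 and -2.69 for Mt2. The summed MG markers were 214 and 211 CPM over all BC, and 639 and 442 CPM in AC.

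In rods, Mt1 had 724 and 1120 UMIs, at 55.5 CPM (51.6 to 59.7) in Ptbp1-Ctrl and 77.3 CPM (72.8 to 81.9) in Ptbp1-KO, with a log2 ratio of 0.48 (0.34 to 0.61). Mt3 in rods went from 8.82 to 15.2 CPM, a log2 ratio of 0.79 (0.46 to 1.13), and was the 1 of 6 measured members past 1.5-fold. Over all genes in rods, 8.95% were as much higher and 1.37% as much lower, and the median gene had a log2 ratio of 0.07. In Ptbp1-Ctrl, Mt1 in rods stood at 4.09% of its MG level and the summed MG markers at 0.884% of theirs, and in Ptbp1-KO at 3.15% and 0.801%. In BC, the same comparison gave 47.3% and 0.944% in Ptbp1-Ctrl. With a share of the whole library's profile subtracted, the log2 ratio of Mt1 in rods was 0.25, that of Mt2 went from 0.41 to -0.15, that of Mt3 was 0.58, and 0 of the 6 members were past 1.5-fold.

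Cones held few metallothionein UMIs. Mt1 had 68 and 87 UMIs there, a log2 ratio of 0.65 (0.17 to 1.13). Mt2 had 8 and 13 UMIs, with a log2 ratio of 0.99 (-0.39 to 2.47), and Mt3 had 17 and 32 UMIs, with a log2 ratio of 1.20 (0.31 to 2.15). Both were under the 50 UMIs asked of a member for the counts, and their intervals held the MG ratios. With Slc30a1, whose log2 ratio of 0.65 (-0.15 to 1.46) rested on 25 and 32 UMIs, 2 of 3 members in cones were at least 1.5-fold higher, against 4.29% of all genes, and 0 were lower, against 3.19%. By the mean of the CPM of each cell, or without the 5% of cones with most markers of other types, 0 of the 3 were as much higher, and without the cone with the most UMIs of the gene 1 was.

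Within BC, Mt1 and Mt2 were concentrated in deposited cluster 5, which is described by its number because no markers of BC subtypes were used here. Its leading genes over the other BC were Sebox, Car8 and Tpbg, listed after their values were seen, and it held 24.1% of BC in Ptbp1-Ctrl and 27.1% in Ptbp1-KO. It held 69.8% (68.6 to 70.9) of the Mt1 UMIs of BC in Ptbp1-Ctrl and 71.3% (70.4 to 72.3) in Ptbp1-KO, 67.8% and 73.0% of the Mt2 UMIs, and 41.1% and 42.9% of the Mt3 UMIs. Mt1 in this cluster was at 1780 CPM in Ptbp1-Ctrl, above the 1357 CPM of MG, and at 2040 CPM in Ptbp1-KO, below the 2457 CPM of MG. The log2 ratio of Mt1 was 0.20 (0.14 to 0.25), of Mt2 0.35 (0.21 to 0.48) and of Mt3 0.61 (0.40 to 0.83). The 6 MG markers also summed to more in the Ptbp1-KO cells of this cluster, at 246 CPM against 193 CPM, and their part in these ratios was not tested. At 1000 UMIs per cell, 79.7% and 80.8% of its cells had Mt1.

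The other 9 BC clusters had Mt1 between 43.1 and 533 CPM in Ptbp1-Ctrl. Over all 10 BC clusters, the Mt3 ratio was above 0 in 10 and its interval above 0 in 6, with log2 ratios from 0.16 to 1.41. The Mt1 ratio was above 0 in 8 of 10 and its interval in 5, from -0.12 to 1.12. Both top values came from cluster 21, where Mt1 had 51 and 95 UMIs and Mt3 had 18 and 41, and where the 6 cone markers summed to 15262 and 15622 CPM and the 6 BC markers to 2253 and 2397 CPM. Over the other 9 clusters, the Mt3 ratio was above 0 in 9 and its interval in 5, from 0.16 to 0.89, and the Mt1 ratio was above 0 in 7 and its interval in 4, from -0.12 to 0.60. Without cluster 21, the log2 ratios over BC were 0.35 for Mt1, 0.43 for Mt2 and 0.73 for Mt3. For Mt2 the interval lay above 0 in 2 clusters and below 0 in 1, cluster 19, where it went from 99.6 to 58.1 CPM (log2 -0.78, -1.36 to -0.22). Mt3 was highest in cluster 12, led by Gm32585, Ptprt and Kcnd2, at 176 and 252 CPM, rather than in cluster 5, at 115 and 176 CPM. With the clusters of BC given the same weights in both libraries, the log2 ratios over BC were 0.21 for Mt1, 0.29 for Mt2 and 0.62 for Mt3.

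**Figure D4:**
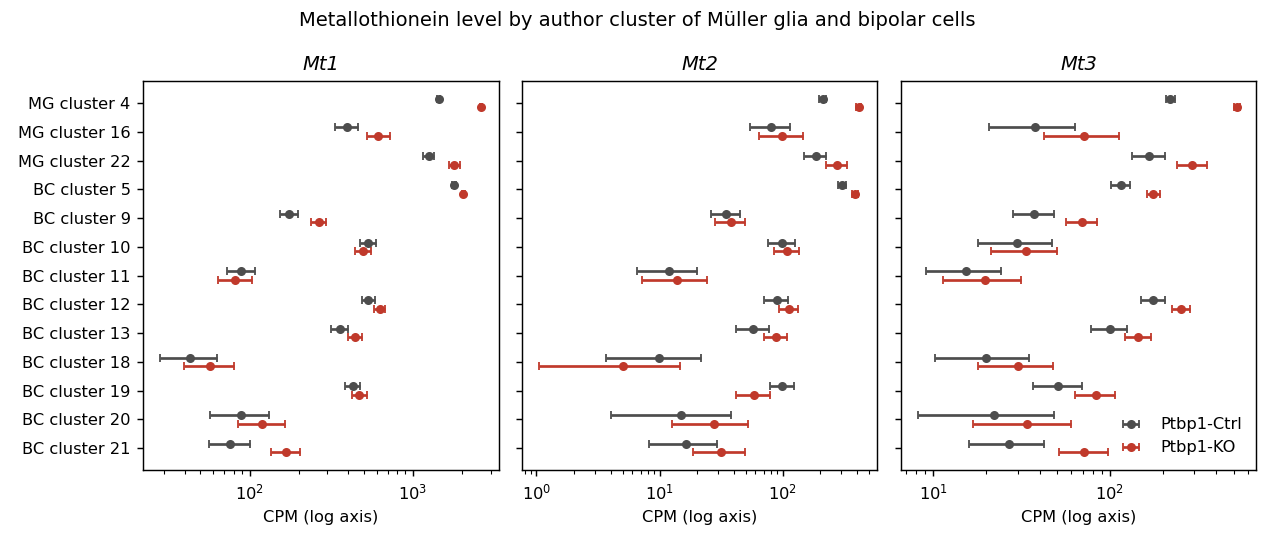
Level of Mt1, Mt2 and Mt3 (panels) in each deposited cluster of MG and BC (rows), as CPM of summed UMIs on a log axis, in Ptbp1-Ctrl (grey) and Ptbp1-KO (red), with 95% exact Poisson intervals. Mt1 in BC cluster 5 lies at 1780 and 2040 CPM, and Mt3 in BC cluster 12 at 176 and 252 CPM.

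The proportion of Mt3 to Mt1 also differed between libraries, whereas that of Mt2 to Mt1 differed less. Per 100 Mt1 UMIs, MG held 15.0 Mt3 UMIs (14.1 to 15.9) in Ptbp1-Ctrl and 19.7 (18.9 to 20.6) in Ptbp1-KO, and 14.8 Mt2 UMIs (13.9 to 15.7) and 15.9 (15.1 to 16.7). In BC, Mt3 went from 11.0 (10.1 to 11.9) to 14.3 (13.5 to 15.2) per 100 Mt1 UMIs, and Mt2 from 17.5 (16.4 to 18.7) to 18.5 (17.5 to 19.5). AC held 17.4 (14.0 to 21.4) and 16.7 (14.4 to 19.3) Mt3 UMIs per 100 of Mt1. These proportions compare types and libraries, not the levels of the genes. Across the 10 sums of 5 types and 2 libraries, Pearson's r on log2(CPM + 1) was 0.99 between Mt1 and Mt2 and 0.98 between Mt1 and Mt3, as a description over sums that share libraries. Members aside, the most alike of 6708 genes were Slc35f1, Pcdh11x and Dusp1 for Mt1, Tanc1, Sulf1 and Dusp1 for Mt2, and Adamtsl1, Ciart and Arhgap18 for Mt3, with r from 0.97 to 0.99.

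Of the 3 transporters, Slc30a10 had the largest share of its UMIs in MG, which held 70.8% (60.2 to 79.9) of them in Ptbp1-Ctrl and 75.5% (65.98 to 83.5) in Ptbp1-KO. Its level was 10.7 and 15.1 CPM in MG, against 6.64 and 2.07 CPM in AC, 1.02 and 1.07 CPM in BC and at most 0.345 CPM in rods. The AC values rest on 13 and 8 UMIs, with a log2 ratio of -1.68 (-3.16 to -0.30). Slc30a1 stood at 14.3 to 19.4 CPM in the 5 larger types of Ptbp1-Ctrl and 16.4 to 23.0 CPM in those of Ptbp1-KO. In Ptbp1-Ctrl the intervals of MG over each of the other 4 types held 0, whereas in Ptbp1-KO it was higher in MG than in rods (log2 0.49, 0.15 to 0.81) and BC (log2 0.40, 0.06 to 0.75). Slc39a14 was lower in MG than in rods, BC and AC, at 6.60 CPM against 12.04, 11.2 and 17.9 CPM in Ptbp1-Ctrl. In cones it had 4 and 13 UMIs, a log2 ratio of 1.99 (0.30 to 4.07).

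Mtf1 was distributed unlike the metallothioneins. In Ptbp1-Ctrl it stood at 49.4 CPM (45.1 to 54.1) in BC, 43.6 CPM (40.1 to 47.4) in rods, 39.0 CPM in cones, 29.1 CPM in AC and 21.7 CPM (18.1 to 25.8) in MG, and in Ptbp1-KO at 49.9, 39.2, 39.3, 25.4 and 19.7 CPM. Its log2 ratio lay between -0.20 and 0.01 in these 5 types, with intervals that held 0. BC cluster 5, the cluster with the highest Mt1, also had the highest Mtf1 of the BC and MG clusters, at 89.0 CPM (77.6 to 102) in Ptbp1-Ctrl and 94.99 CPM (84.2 to 107) in Ptbp1-KO. MG cluster 4, by contrast, had Mtf1 at 19.6 and 18.4 CPM.

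No zinc transporter of at least 50 UMIs over both libraries passed 1.5-fold in MG. Over all genes with as many UMIs in MG, 4.64% were as much higher and 3.11% as much lower. Nothing is read from the counts of these short lists. Of 10 Slc30a exporters, 7 reached 50 UMIs in MG, 0 were past 1.5-fold in either direction, and the median log2 ratio was -0.01. The highest ratios were those of Slc30a10 (0.51) and Slc30a1 (0.29), and the lowest those of Slc30a6 (-0.16) and Slc30a7 (-0.15), which load zinc into the secretory pathway. Of 14 Slc39a importers, 9 reached 50 UMIs, 0 were past 1.5-fold, and the median was 0.09. Slc39a11 (0.44) and Slc39a14 (0.14) were highest, and Slc39a13 (-0.28) and Slc39a3 (0.02) lowest. Over the 16 transporters together the median was 0.08, beside -0.00 over all genes. In the largest MG cluster alone the transporter median was 0.019. In copper handling, 0 of 8 genes were 1.5-fold higher and 1 lower, the median was -0.11, and the copper exporters Atp7a (80.8 and 55.6 CPM) and Atp7b (7.11 and 4.13 CPM) had log2 ratios of -0.54 (-0.75 to -0.32) and -0.78 (-1.61 to 0.00). Cox17, a mitochondrial copper chaperone, stood at 0.18, and Ccs, which loads copper into Sod1, at -0.05.

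Lists of genes that answer other signals known to raise metallothioneins were mixed in MG. Over all MG genes of at least 50 UMIs, 4.64% were at least 1.5-fold higher and 3.11% as much lower. The lists are short, and no signal is read from their counts. Among 8 measured genes of glutathione synthesis and NRF2 targets, Slc7a11, the cystine importer, had 70 and 414 UMIs, at 11.9 CPM (9.24 to 14.97) in Ptbp1-Ctrl and 81.4 CPM (73.8 to 89.6) in Ptbp1-KO, with a log2 ratio of 2.78 (2.41 to 3.17). It was the 1 gene of this list past 1.5-fold, with Gclm at 0.30, Gsr at -0.27 and Nqo1 at -0.55, and the list's median was 0.07. Slc7a11 had 47 and 46 UMIs in BC and 19 and 19 in AC. Of 7 measured glucocorticoid-induced genes, Fkbp5 (52.8 and 126 CPM, log2 1.26) and Zbtb16 (58.1 and 91.6 CPM, log2 0.66) were past 1.5-fold, while Sgk1 stood at -0.30 and the receptor gene Nr3c1 at -0.14. The median was 0.22. Fkbp5 in BC was at 13.1 and 13.5 CPM.

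The counts of further lists in MG stand beside the same shares of all genes, 4.64% at least 1.5-fold higher and 3.11% as much lower. Nothing is read from these counts either. Of 6 measured cytokine and gliosis genes, Gfap, the intermediate filament of reactive glia, was past 1.5-fold. It had 26 and 35 UMIs, with a log2 ratio of 0.64 (-0.13 to 1.44). Fgf2 stood at 0.43, Vim at 0.02 and Socs3, a target of cytokine signalling, at -0.08, and the median was 0.25. Of 12 genes of dissociation stress, none was 1.5-fold higher and 1, Atf3 (log2 -0.78), was lower, with Fosb at 0.33, Hspa1a at 0.26, Hspa1b at -0.05 and a median of 0.09. The genes on either side of the metallothionein cluster did not pass 1.5-fold, with 7 measured and a median of 0.22. Of these, Ogfod1 had a log2 ratio of 0.48 (0.10 to 0.86) and Bbs2 of 0.28, and Nup93 (-0.01) and Herpud1 (-0.05) were lowest. Gm45774, an antisense gene that overlaps Mt2, had 7 and 14 UMIs in MG, against the 1184 and 1985 of Mt2.

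**Figure D5:**
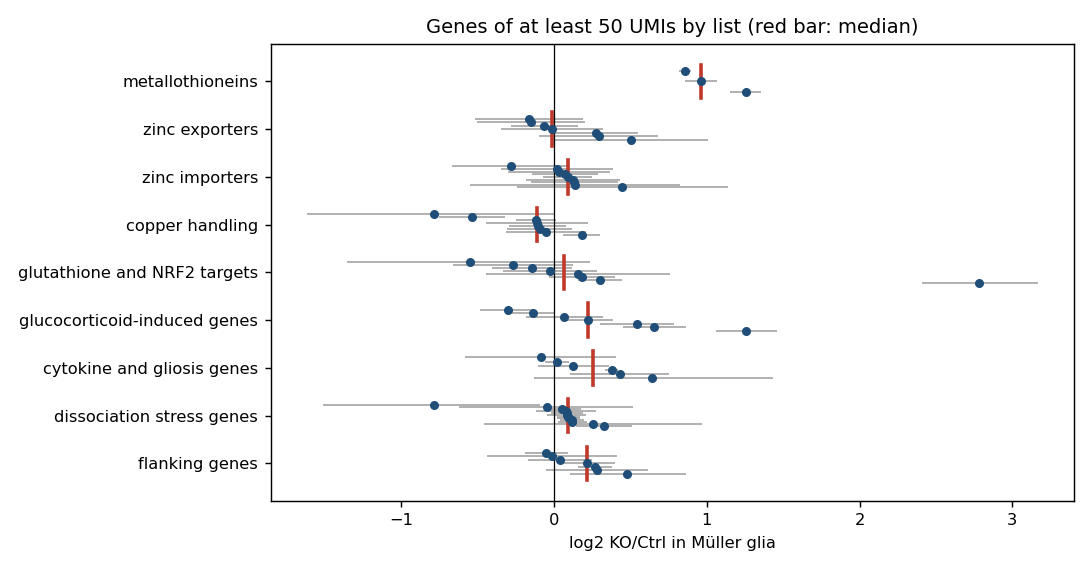
Log2 ratio of Ptbp1-KO over Ptbp1-Ctrl in MG (x axis) for the genes of each list with at least 50 UMIs over both libraries (rows), with 95% exact intervals of counting error as lines and the list's median as a red bar. The metallothionein median is 0.96, the medians of zinc exporters and importers are -0.01 and 0.09, and the point at 2.78 is Slc7a11.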

How the data were processed

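Retinas were papain-dissociated and captured with 10x Genomics 3' version 3.1 reagents. Per the labels and the study's methods, reads were aligned to mm10 with Cell Ranger 7.0.1 and cells were filtered in Seurat (version 4). The authors deposited raw UMI counts per gene and cell, with a cell table of sample, cluster and cell type that also gives the percent of mitochondrial UMIs used in the filter. A further 2 columns of per-cell values were not used. The annotation counted against is not given in the sources used here. Doublets were not called here.

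From the counts, UMIs were summed by library and type or cluster and expressed as CPM. Intervals are 95% exact (Poisson, conditional binomial or Clopper-Pearson). No test between genotypes was run, since cells of 1 library are not replicates. Genes were counted as past 1.5-fold at 50 or more UMIs over both libraries, and ratios on fewer UMIs are given with their counts. Shares were compared after thinning each cell to 1000 UMIs. A count of 0 was read as up to 3 counts. The summing step was tested on simulated counts. Promoter windows are RefSeq's. Software was Python 3.11.15, numpy 2.4.6, scipy 1.17.1, R 4.3.3 and edgeR 4.0.16 (TMM factors only).

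The genes and lists were chosen with earlier results of these data known. Genes were named by rule: every member, the 2 largest and the 2 smallest ratios of each list in MG, and the 3 genes most alike to each metallothionein over sums of at least 50 CPM in the mean. Genes that lead clusters were named after their values were seen.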

Additional observations from a re-analysis of the deposited data

Results flagged for a closer look

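Mt3 had ratios of opposite direction among cell types, with log2 ratios of 1.25 in MG, 0.76 in BC, 0.79 in rods and 1.20 in cones but -1.16 in RGC. The cone value rests on 17 and 32 UMIs, and the RGC value on 124 and 97 cells, in which the 6 rod markers summed to 22140 and 26731 CPM and the 6 RGC markers to 2511 and 1520 CPM. The part of these markers in the RGC value was not tested. Slc30a10 had a log2 ratio of 0.51 in MG and of -1.68 in AC, on 13 and 8 UMIs in AC. Within BC, Mt2 had a log2 ratio of 0.35 in cluster 5 and 0.61 in cluster 13, against -0.78 in cluster 19. These were picked out because the counting intervals of 1 type or cluster lay above 0 and those of another below it. With 1 library per genotype the differences between types were not tested.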

How the results depend on the processing

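The recomputed values in MG were metallothionein ratios and shares, the count past the limit and the transporter median. Of these, 54 kept their direction and stayed within the range allowed to them, and 9 moved in size with the direction kept. For ratios and shares this range was the counting error. For the transporter median it was 0.053, the standard deviation over genes divided by the root of their number. The count past the limit has no counting error and was given a separate range. With background subtracted, the log2 ratio of Mt1 in MG was 0.93 instead of 0.86. With a 2-fold limit, 1 of the 7 genes (Mt3) counted as higher in MG. In the largest MG cluster alone the median of the zinc transporters was 0.019 instead of 0.08. The difference in the share of MG with a UMI, Ptbp1-KO minus Ptbp1-Ctrl, was 13.2 percentage points for Mt1, and 7.96 at 2000 UMIs and 7.43 without thinning. For Mt2 it was 8.48 points, and 15.4 without thinning. For Mt3 it was 18.6 points, and 14.6 at 700 UMIs, 23.8 at 2000 UMIs and 27.9 without thinning. The cause was not tested. Of the values in other types or genes, 285 stayed and 16 moved. With background subtracted the log2 ratio was -2.69 for Mt2, -0.07 for Mt1 and -0.35 for Mt3 in AC, and -0.15 for Mt2 in rods. In the largest cluster of the type it was 0.84 for Mt3 in AC, 0.83 for Mt2 in rods, and 0.20 for Mt1 and -0.21 for Slc30a1 in BC. Scaling by TMM shifted ratios by -0.09 in rods and by at most 0.04 in size elsewhere. The alternatives without shared barcodes, without the top cell, without BC cluster 21 and with common cluster weights were added after seeing the data. No library could be left out and no paired analysis was possible because each genotype has 1 library. Depth limits Slc30a10, Slc39a14 and all genes in RGC and HC.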
